A study of Drosophila melanogaster with 3 samples.

Results

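Aminoacyl-tRNA synthetases are the enzymes that join each amino acid to its tRNA, and their genes are described here for where the Mastermind protein was found on the fly genome. The family was chosen with earlier results of these data known, and its genes were taken by symbol. They are protein-coding genes on the main chromosome arms whose symbol is 1 or 2 amino acid codes followed by RS, with -m for the mitochondrial enzymes. This gave 33 of 13968 protein-coding genes, 18 cytosolic and 15 mitochondrial. The subunit genes of the cytosolic phenylalanine enzyme, alpha-PheRS and beta-PheRS, carry a prefix that the rule does not match, and they are given with the partner genes further on. Chromatin immunoprecipitation with sequencing (ChIP-seq) was done on whole Drosophila melanogaster embryos of mixed sex aged 0 to 24 h, in 1 group of 3 samples numbered as biological replicates. All carried the mam-MiMIC-GFP insertion, in which an eGFP exon inside an intron of mam makes a Mastermind-GFP fusion, and an antibody against GFP was used. It is 1 line, every cell of the embryo contributes, and the possible control that the labels name was not analysed here, so all comparisons are with other genes in the same lists.

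Each synthetase is specific to 1 amino acid, except that fly GluProRS joins the glutamate and proline enzymes in a single protein. Cytosolic enzymes serve translation on cytosolic ribosomes, while the mitochondrial enzymes are encoded in the nucleus, imported, and serve the translation of mitochondrial mRNAs. The classes are read from the symbol alone, so a gene called cytosolic here may also supply the mitochondrial enzyme. For 5 amino acids (glutamine, glycine, histidine, lysine and threonine) the rule finds only a gene without -m. Both sets are housekeeping genes, needed in every growing cell. Mastermind is a nuclear coactivator best known from Notch signalling, where it binds the cleaved Notch receptor and its DNA-bound partner Su(H) and helps to switch on target genes.

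Several kinds of peak list are used. The reproducible list holds 5326 peaks kept by the irreproducible discovery rate procedure, which retains peaks ranked alike in replicates, and the pooled list holds 24073 peaks of the combined replicates, weak and background calls included. The replicate lists hold 30000, 24267 and 24306 peaks for replicates 1, 2 and 3, so each was also read through its 5326 strongest peaks. A gene is counted when a summit, the highest point of a peak, lies within 1000 bp of any of its annotated transcription start sites. Signal is the value the authors gave each peak, at least 110 in the reproducible list, on a scale that neither labels nor headers give. It is therefore compared within a list only, and the depth of each sample is unknown. All 17 reproducible peaks of synthetase genes sit at the list's highest −log10 q-value, 4.00, so that value does not order them.

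The sequences under the strongest synthetase peaks are shown first, because they hold the summits that the results turn on. They are the 201 bases centred on the summit for the 6 genes with the highest signal in the reproducible list, read 5′ to 3′ on the strand of the gene from the Release 6 (dm6) genome of RefSeq. Capitals mark matches to the searched motifs, which in these windows are TATCGATA (the DNA replication-related element, DRE) and CGATA (the core bound by the insulator protein BEAF-32), on either strand.
SerRS (chr2L:3037325-3037525, minus strand): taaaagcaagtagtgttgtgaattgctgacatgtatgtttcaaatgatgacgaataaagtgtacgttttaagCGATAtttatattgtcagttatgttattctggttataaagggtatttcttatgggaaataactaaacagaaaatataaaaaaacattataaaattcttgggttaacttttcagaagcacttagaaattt
LeuRS-m (chr3L:4824913-4825113, plus strand): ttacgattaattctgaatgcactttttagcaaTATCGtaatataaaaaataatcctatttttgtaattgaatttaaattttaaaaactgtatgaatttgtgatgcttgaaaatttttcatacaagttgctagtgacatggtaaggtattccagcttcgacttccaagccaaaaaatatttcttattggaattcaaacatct
ArgRS (chrX:15844240-15844440, minus strand): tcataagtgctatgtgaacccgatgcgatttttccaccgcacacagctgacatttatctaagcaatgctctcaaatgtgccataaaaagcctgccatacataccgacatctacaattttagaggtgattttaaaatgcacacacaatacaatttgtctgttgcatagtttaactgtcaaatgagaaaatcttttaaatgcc
IleRS (chr3L:22288437-22288637, plus strand): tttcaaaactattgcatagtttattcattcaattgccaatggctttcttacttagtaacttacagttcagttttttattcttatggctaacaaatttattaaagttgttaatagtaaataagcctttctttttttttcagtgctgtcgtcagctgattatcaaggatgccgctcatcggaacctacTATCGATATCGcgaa
GluProRS (chr3R:23958339-23958539, minus strand): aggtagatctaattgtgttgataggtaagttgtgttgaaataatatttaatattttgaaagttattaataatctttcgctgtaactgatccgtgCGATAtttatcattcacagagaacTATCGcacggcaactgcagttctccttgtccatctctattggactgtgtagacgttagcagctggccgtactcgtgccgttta
ThrRS (chr2L:12103508-12103708, plus strand): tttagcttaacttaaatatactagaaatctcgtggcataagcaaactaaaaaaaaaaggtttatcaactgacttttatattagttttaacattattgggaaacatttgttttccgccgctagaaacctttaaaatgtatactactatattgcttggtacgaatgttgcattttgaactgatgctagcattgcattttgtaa

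For contrast, 3 promoters of mitochondrial enzymes with no summit in the pooled list follow, the first 3 by symbol. Weak calls near them exist in single lists, in replicate 1 for GluRS-m and IleRS-m and in replicates 2 and 3 for ProRS-m. Each promoter runs from 250 bases before the start site to 50 bases from it onward (300 bases, same genome and direction). Capitals mark matches to GGTCACACT (core promoter motif 1, bound by M1BP) and CGATA, on either strand.
GluRS-m (chr3L:16417128-16417427, minus strand): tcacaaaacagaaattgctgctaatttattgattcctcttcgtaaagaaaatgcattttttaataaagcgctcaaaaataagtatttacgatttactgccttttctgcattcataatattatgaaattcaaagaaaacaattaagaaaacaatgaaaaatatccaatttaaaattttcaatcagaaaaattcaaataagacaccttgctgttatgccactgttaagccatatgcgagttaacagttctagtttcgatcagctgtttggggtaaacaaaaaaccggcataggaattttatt
IleRS-m (chr3L:16100030-16100329, plus strand): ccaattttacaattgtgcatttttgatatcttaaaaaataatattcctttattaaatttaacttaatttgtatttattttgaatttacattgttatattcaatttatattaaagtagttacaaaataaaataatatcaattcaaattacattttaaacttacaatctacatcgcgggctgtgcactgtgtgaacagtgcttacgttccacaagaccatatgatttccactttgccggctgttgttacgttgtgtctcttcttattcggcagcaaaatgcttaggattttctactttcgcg
ProRS-m (chr3L:2651801-2652100, minus strand): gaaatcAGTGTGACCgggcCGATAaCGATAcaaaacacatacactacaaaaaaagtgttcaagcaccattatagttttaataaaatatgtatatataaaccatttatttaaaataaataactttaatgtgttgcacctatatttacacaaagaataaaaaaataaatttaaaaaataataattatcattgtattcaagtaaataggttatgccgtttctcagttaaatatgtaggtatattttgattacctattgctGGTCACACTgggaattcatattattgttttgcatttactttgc

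A reproducible Mastermind summit lay at 13 of the 33 synthetase genes, 39.4% (exact Clopper-Pearson 95% interval 22.9 to 57.9), against 29.7% of all protein-coding genes. The 13 are AlaRS, ArgRS, AsnRS, AspRS, GluProRS, HisRS, IleRS, SerRS, ThrRS and ValRS of the cytosolic set and ArgRS-m, LeuRS-m and PheRS-m of the mitochondrial set. Cytosolic enzymes had a summit at 10 of 18 genes (55.6%, 30.8 to 78.5) and mitochondrial enzymes at 3 of 15 (20.0%, 4.33 to 48.1). The interval of the whole family and that of each class hold the share of all genes except that the cytosolic interval starts just above it. The intervals of the cytosolic and mitochondrial classes overlap. No test was run of these shares, and the intervals, which hold counting error only, are not one. The genes were chosen with earlier results of these data known, and genes are not replicates.

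The replicates gave nearly the same picture. Among the 5326 strongest peaks of each replicate, the share of synthetase genes with a summit was 42.4%, 42.4% and 39.4% in replicates 1, 2 and 3 (mean 41.4% ± 1.75, SD, n = 3), against 28.4%, 29.8% and 30.2% of all genes (29.4% ± 0.930). Cytosolic enzymes stood at 61.1%, 55.6% and 55.6% (57.4% ± 3.21) and mitochondrial enzymes at 20.0%, 26.7% and 20.0% (22.2% ± 3.85). In each of the 3 replicates the cytosolic share was the highest and the mitochondrial share lay below that of all genes. In replicate 2 the mitochondrial share was below that of all genes by less than the SD between replicates. The same 13 genes had a summit among the strongest peaks of all 3 replicates, where 23.6% of all genes did. No synthetase gene had one in exactly 2 replicates. TrpRS had one in replicate 1 alone (rank 4727) and CysRS-m in replicate 2 alone (rank 5294).

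**Figure D1:**
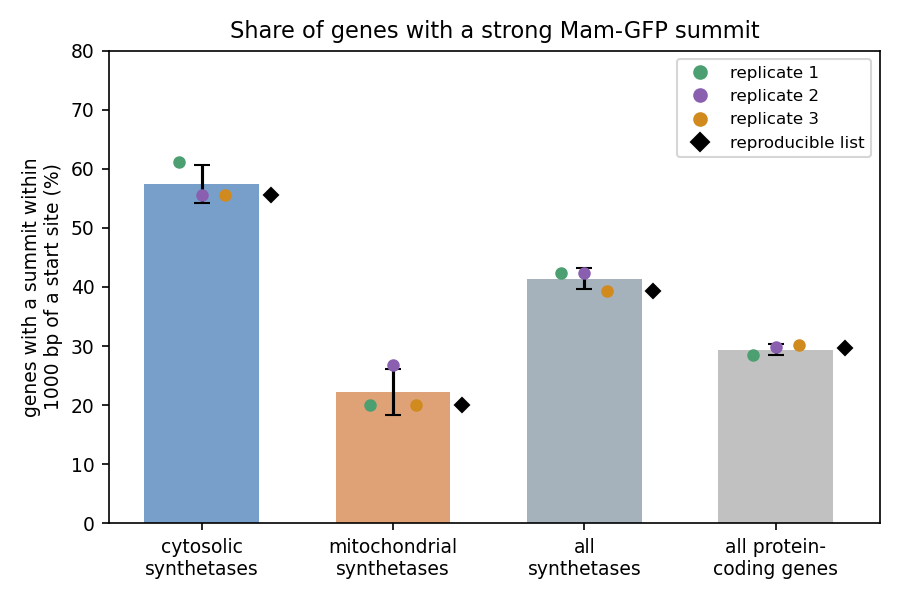
Share of genes (percent) with a Mastermind summit within 1000 bp of a start site, for cytosolic synthetases (18 genes), mitochondrial synthetases (15), all synthetases (33) and all protein-coding genes (13968). Bars and whiskers are the mean and SD over the 5326 strongest peaks of each of 3 replicates, circles are the replicates and diamonds the reproducible list. Cytosolic enzymes lie between 55.6% and 61.1%, mitochondrial enzymes between 20.0% and 26.7%, and all genes between 28.4% and 30.2%.

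In the pooled list, which reaches down to weak calls, 26 of 33 synthetase genes had a summit (78.8%, 61.1 to 91.0) against 58.9% of all genes. Of the cytosolic enzymes 17 of 18 had one (94.4%), the exception being CysRS, which charges cysteine tRNA, and of the mitochondrial enzymes 9 of 15 (60.0%). Here the mitochondrial share was close to that of all genes.

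SerRS, the cytosolic serine enzyme, had the strongest peak of the family (2L, 3037196 to 3037579). Its signal was 758, rank 247 of 5326, which is the top 4.64% of the list. In replicates 1, 2 and 3 the signal was 219, 267 and 281 and the rank 312, 216 and 210. The summit lay 22 bp upstream of the SerRS start site and in the 5′ UTR of CG17260, an uncharacterised gene on the other strand whose start site lies 8 bp upstream of that of SerRS. With the pair of start sites 8 bp apart, the peak cannot be assigned to either gene, and the replicate summits lay within 25 bp of each other.

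LeuRS-m, the mitochondrial leucine enzyme, came next, with 2 peaks. The stronger (3L, 4824904 to 4825154) had a signal of 662 at rank 320, and 211, 221 and 219 in replicates 1, 2 and 3. It lay 840 bp upstream of LeuRS-m, inside an intron of Dhc64C, the cytoplasmic dynein heavy chain gene on the other strand, whose start site is 166 bp upstream of that of LeuRS-m. The weaker (4825565 to 4825960, signal 199, rank 2589) lay between the pair of start sites, 90 bp upstream of LeuRS-m and 76 bp from Dhc64C. Its signal was 68.0, 76.4 and 47.8 in replicates 1, 2 and 3. Both peaks are nearer to Dhc64C than to LeuRS-m.

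The next 3 genes, all cytosolic, followed with nearly equal signal. ArgRS, the arginine enzyme, had 545 at rank 481 (X, 15844207 to 15844451), with 142, 193 and 204 in replicates 1, 2 and 3. IleRS, the isoleucine enzyme, had 528 at rank 508 (3L, 22288391 to 22288663), with 159, 190 and 178. GluProRS, the joined glutamate and proline enzyme, had 518 at rank 531 (3R, 23958339 to 23958538), with 147, 176 and 193, and a second peak of 428 at rank 773 (23958510 to 23958701). In every replicate these 3 genes ranked between 418 and 745 in their strongest peak, so their order is not fixed beyond the spread between replicates. The ArgRS summit lay 195 bp upstream of the gene and 136 bp from CG8578 on the other strand, and its replicate summits fell within 10 bp, the tightest of the family. The IleRS summit lay 128 bp upstream, with the start site of Hem, a subunit gene of the SCAR actin-regulating complex, at 470 bp on the other strand. The stronger GluProRS summit lay 48 bp upstream of that gene, while the weaker lay 11 bp from the start site of AP-1sigma, a clathrin adaptor subunit gene, on the other strand.

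ThrRS, the threonine enzyme, had a signal of 383 at rank 918 (2L, 12103527 to 12103729), with 131, 128 and 138 in replicates 1, 2 and 3 and its summit 143 bp upstream. AsnRS, the asparagine enzyme, had 332 at rank 1204 (2L, 19131943 to 19132091), with 109, 111 and 114, and a second peak of 155 at rank 3580 that lay 92 bp from DCTN6-p27, a dynactin subunit gene. That second peak was among the strongest peaks of 2 replicates only, with rank 5809 in replicate 3. The other 16 reproducible peaks of synthetase genes were among the strongest of all 3. The first peaks of ThrRS and AsnRS also ranked alike in replicates 1, 2 and 3, at 860, 938 and 912 for ThrRS and 1200, 1208 and 1285 for AsnRS. AspRS, the aspartate enzyme, had 2 peaks, 266 at rank 1727 (2R, 12879783 to 12879968) and 235 at rank 2071 (12879948 to 12880343). They lay 349 and 138 bp upstream of the nearest of its 3 annotated start sites, which is inside the gene. Both summits were thus within an intron of AspRS, and AspRS is not counted when only the 5′ end of the gene is used. The first was also in an intron of Nmda1 and the second in the 5′ UTR of Nmda1. The signal of the first was 62.5, 87.6 and 132 in replicates 1, 2 and 3. Its replicate summits were spread over 198 bp, the widest of the family. In replicate 1 both AspRS peaks met 1 and the same peak, at rank 2929.

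The remaining peaks were weaker. ArgRS-m, the mitochondrial arginine enzyme, had 259 at rank 1794 (3R, 7886762 to 7887157), 85 bp upstream of its start site, with 60.5, 81.5 and 103 in replicates 1, 2 and 3. ValRS, the valine enzyme, had 194 at rank 2698 in a peak 101 bp wide (2R, 13198350 to 13198450), with 69.1, 42.4 and 86.3. That summit lay 478 bp upstream of ValRS and 35 bp from Kdm4B, a histone demethylase gene. HisRS, the histidine enzyme, had 191 at rank 2742 (X, 18516067 to 18516462), with 63.1, 45.8 and 76.6. HisRS is the 1 gene with its summit downstream of its nearest start site, by 837 bp. That summit lay in the annotated 5′ UTR of HisRS and in an intron of Bx, a LIM-only transcription cofactor gene that starts at the same base. PheRS-m, the mitochondrial phenylalanine enzyme, had 166 at rank 3277 (2R, 13967981 to 13968376), 129 bp upstream, with 65.1, 54.4 and 49.1. AlaRS, the alanine enzyme, had the weakest, 140 at rank 4021 (2L, 8381689 to 8382084), 123 bp upstream and in the annotated 3′ UTR of CG13392, with 45.3, 49.9 and 54.4. The ranks in replicates 1, 2 and 3 were 2523, 4431 and 1979 for ValRS and 4659, 3617 and 3586 for AlaRS.

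**Figure D2:**
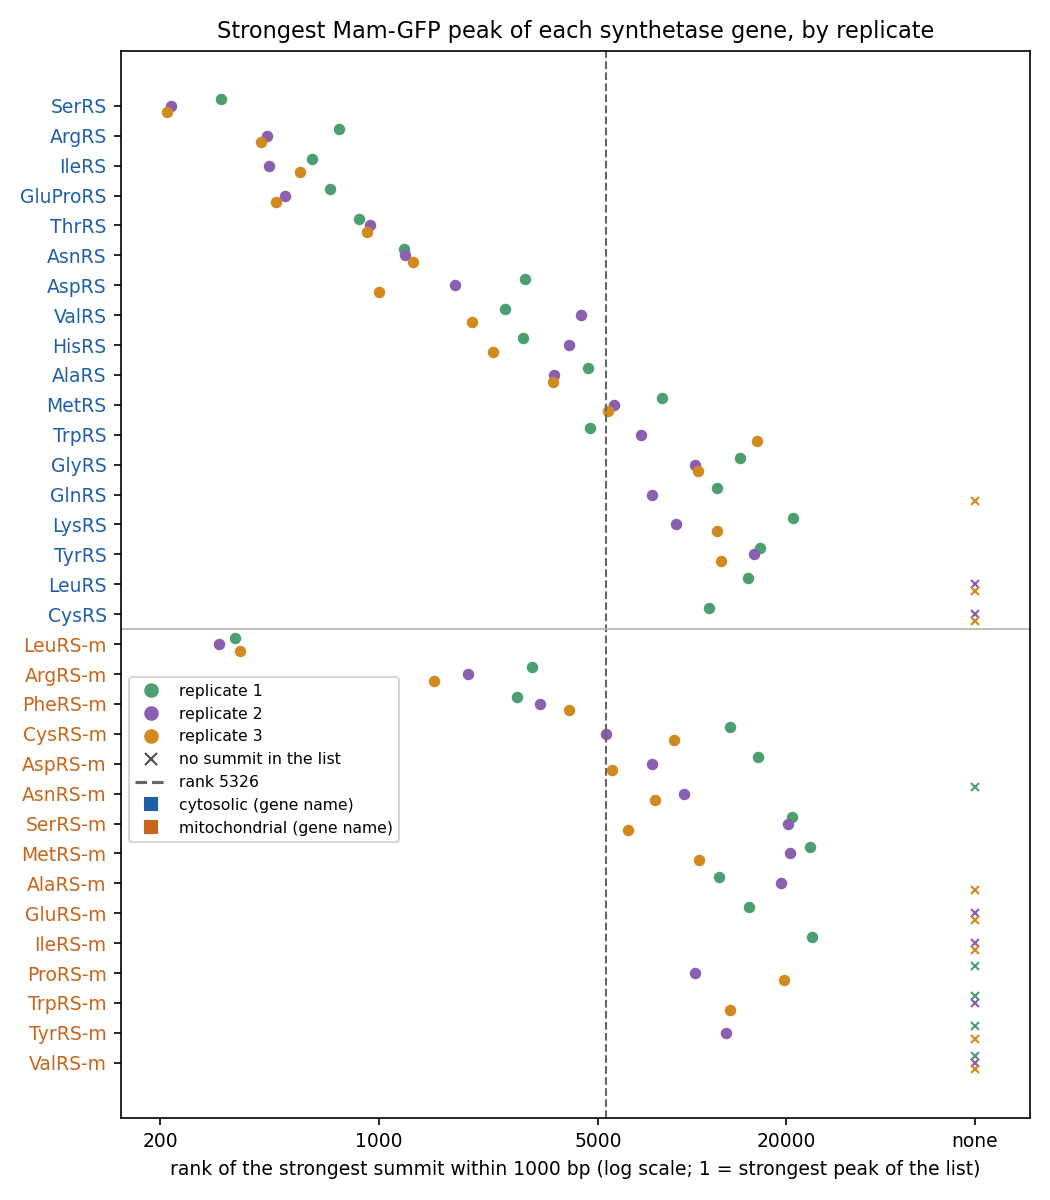
Rank of each synthetase gene's strongest peak within 1000 bp in the lists of replicates 1, 2 and 3 (log scale, rank 1 the strongest), with cytosolic genes above mitochondrial ones, rank 5326 as a dashed line and crosses where a list has no summit. The 13 genes with a reproducible summit stay inside the line in every replicate, while TrpRS and CysRS-m cross it in a single replicate.

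The threshold separates no gap in the signal. AlaRS, with 140, is the weakest gene inside it, and the nearest outside were MetRS (105, pooled rank 5654), CysRS-m (87.3, rank 6860) and TrpRS (77.6, rank 7875), which charge methionine, mitochondrial cysteine and tryptophan tRNA. MetRS had 31.0, 33.9 and 38.6 in replicates 1, 2 and 3, at ranks 8022, 5621 and 5371. TrpRS had 44.8, 28.1 and 17.4, at ranks 4727, 6878 and 16180, and its replicate 1 summit lay 179 bp downstream of the start site, where the others lay just upstream. CysRS-m ranked 13181, 5294 and 8760, and shares its upstream region with O-fut1, a gene of Notch receptor glycosylation on the other strand with its start site 168 bp away. MetRS thus stood just past rank 5326 in replicates 2 and 3 and farther past it in replicate 1, and the ranks of the other pair varied more between replicates.

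Of the 20 synthetase genes with no reproducible summit, 13 had a pooled one. Below the 3 just named, their signal ran from 73.0 at AspRS-m (rank 8451) through 64.2 at GlyRS, 58.5 at AsnRS-m, 56.8 at GlnRS, 56.4 at LysRS, 55.2 at SerRS-m, 52.7 at TyrRS, 49.2 at MetRS-m and 46.2 at AlaRS-m to 35.7 at LeuRS (rank 23272). LeuRS, the cytosolic leucine enzyme, thus sat near the bottom of the 24073 pooled peaks. The 7 with no pooled summit were CysRS, GluRS-m, IleRS-m, ProRS-m, TrpRS-m, TyrRS-m and ValRS-m, of which 6 are mitochondrial. ValRS-m was the 1 synthetase gene with no summit in any replicate list. Beyond the window, the bodies of synthetase genes held 0 reproducible and 6 pooled summits.

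Within the 13, the median rank of the strongest peak stood at the top 22.6% of the reproducible list (19.9% for the cytosolic and 33.7% for the mitochondrial genes), against the top 39.0% for all 4145 genes with a summit. The median signal was 332 against 235. In the strongest peaks of replicates 1, 2 and 3 the median of the same 13 genes was the top 22.5%, 22.7% and 18.7% (21.3% ± 2.23, SD, n = 3). Counting every synthetase gene with a summit there adds TrpRS in replicate 1 and CysRS-m in replicate 2, and the medians of those 14 genes were the top 35.0% and 27.8%. Counted so, the mean over the 3 replicates was the top 27.2% ± 8.12 (SD). The 3 mitochondrial genes range from rank 320 to 3277, so their median rests on single genes. Under other assignment rules the synthetase median ran from the top 17.2% (within 2000 bp) to the top 36.3% (where the peak holds a start site). The median of all genes was not computed under those rules, so the contrast with 39.0% holds for the main rule only.

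Amino acids can be compared gene by gene where both compartments have an enzyme that the rule finds, which is the case for 14 of them when GluProRS stands for both glutamate and proline. Only arginine had a reproducible summit at both its genes. For 8 amino acids (alanine, asparagine, aspartate, glutamate, isoleucine, proline, serine and valine) the cytosolic gene alone had one, and for leucine the mitochondrial gene alone. For cysteine, methionine, tryptophan and tyrosine neither had one. Of the 14 amino acids, 7 had a pooled signal at both genes, and in 6 of these it was higher at the cytosolic gene. The exception was leucine, with 35.7 at LeuRS and 662 at LeuRS-m. That LeuRS-m peak lies 840 bp upstream, and the peak 90 bp upstream had 199. Both are nearer to Dhc64C. For 6 amino acids (glutamate, isoleucine, proline, tryptophan, tyrosine and valine) the cytosolic gene alone had a pooled summit, and for cysteine the mitochondrial gene alone. Serine was the widest apart in the other direction among pairs with a signal at both genes, 758 at SerRS against 55.2 at SerRS-m. Of the enzymes with no partner in the set, HisRS, ThrRS and PheRS-m had a reproducible summit, and GlnRS, GlyRS and LysRS did not.

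**Figure D3:**
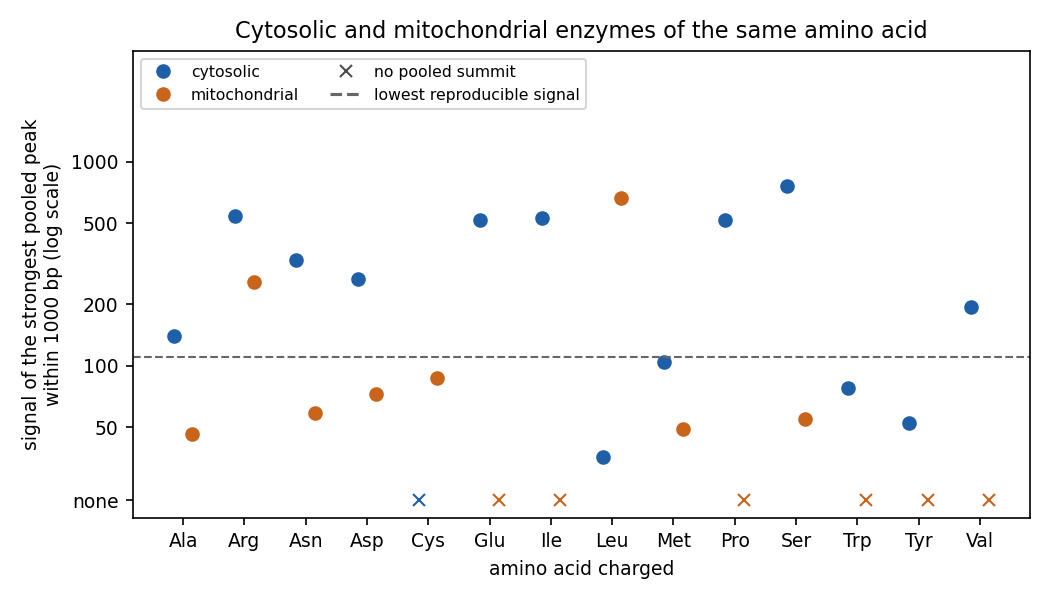
Signal of the strongest pooled peak within 1000 bp (log scale) at the cytosolic and mitochondrial gene of the same amino acid, for the 14 amino acids with both. Crosses mark genes with no pooled summit, and the dashed line is the lowest reproducible signal, 110. Where both genes have a signal (7 amino acids) the cytosolic point is the higher one except for leucine, whose mitochondrial peak is nearer to Dhc64C.

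Most summits lay upstream of an annotated start site, often where 2 genes start back to back. Of the 17 peaks, 16 had their summit upstream of the nearest start site of the gene. The strongest summit was upstream in 12 of 13 genes (92.3%), against 85.4% of all genes with a summit. Both AspRS summits count as upstream of an internal start site, and they lie inside that gene. The median position was −128 bp from the start site (negative upstream), against −119 bp for all such genes. Another gene's start site lay within 1000 bp in 12 of the 13 (92.3%), PheRS-m being the exception, against 63.3% of all genes with a summit. The strongest summit was nearest to the synthetase's own start site in 8 of 13 (61.5%, with HisRS tied with Bx), against 68.1%. Of 11 genes with an opposite-strand start site upstream within the window, 7 had their strongest summit between the pair of start sites: ArgRS, AsnRS, GluProRS, IleRS, ThrRS, ValRS and ArgRS-m. A peak there is shared evidence for both genes, and the assignment to the synthetase is by distance only.

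**Figure D4:**
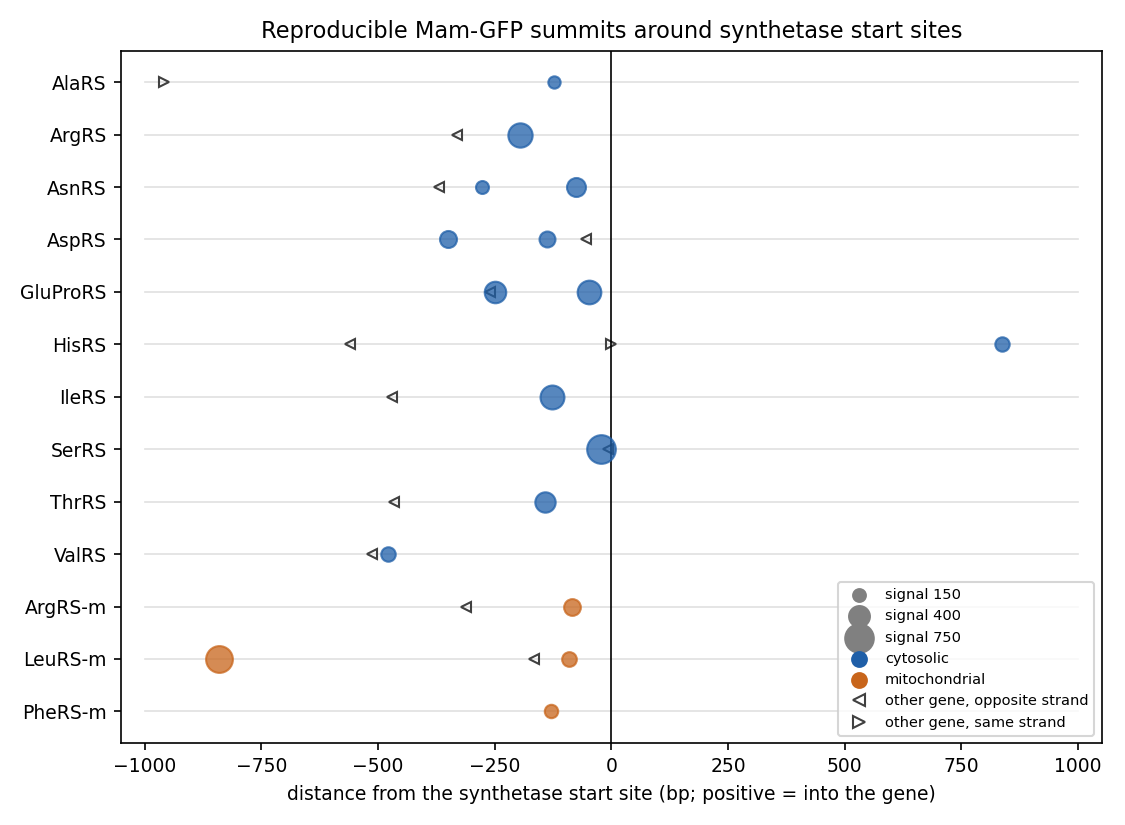
Summits of the 17 reproducible peaks relative to the nearest start site of the synthetase (bp, negative upstream), 1 line per gene, with the start sites of neighbouring genes. The area of a point scales with the signal. Of the 17 summits 16 lie upstream of that start site (for AspRS an internal one), and HisRS is the exception at 837 bp downstream.

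Head-to-head arrangement, meaning an opposite-strand gene that starts within 500 bp, was more frequent in the family than in the genome. It held for 21 of 33 synthetase genes (63.6%), with 14 of 18 cytosolic (77.8%) and 7 of 15 mitochondrial (46.7%), against 27.8% of all genes. Arrangement moves with the presence of a summit: 54.0% of all head-to-head genes had a reproducible summit, against 20.3% of all other genes. Within the family the shares were 9 of 21 (42.9%) for head-to-head genes and 4 of 12 (33.3%) for the others. Cytosolic enzymes had a summit at 7 of 14 head-to-head genes and at 3 of 4 others (75.0%), and mitochondrial enzymes at 2 of 7 (28.6%) and at 1 of 8 others (12.5%). The cytosolic others include ValRS, with the opposite-strand start site of Kdm4B at 513 bp, and HisRS, with that of CG6470 at 561 bp. Both fall just past the 500 bp cut, so the 75.0% and the mix-based shares that follow depend on that cut. If each arrangement had the share of all genes, the family's mix would give 41.8%, where 39.4% was seen. The same figure is 46.6% for the cytosolic genes, where 55.6% was seen, and 36.1% for the mitochondrial genes, where 20.0% was seen. Read against genes of like arrangement, the family as a whole was close to the background share. The part of the arrangement in the difference between the classes was not tested.

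The count depended on how a summit is assigned. With each summit given to the nearest start site alone, 8 synthetase genes (24.2%) were counted, against 21.3% of all genes, and the cytosolic count was 6 of 18 (33.3%). ArgRS, AspRS, SerRS, ValRS and LeuRS-m dropped out, their summits being nearer to a neighbour. A window of 500 bp gave 12 genes (36.4%, all genes 26.2%), without HisRS, and 2000 bp gave the same 13 (39.4%, all genes 35.2%). At 5000 bp the count was 21 (63.6%, all genes 50.3%). Where the peak itself had to hold a start site, 8 were counted (24.2%, all genes 17.6%), and with the stronger 2663 reproducible peaks 9 (27.3%, all genes 18.1%). In the pooled list the 26 genes became 18 (54.5%) both with the nearest start site alone, where all genes stood at 48.8%, and where the peak holds a start site, where they stood at 37.4%. The 13 genes with a summit in all 3 replicates became 7 (21.2%, all genes 14.4%) with the strongest 2663 peaks of each and 22 (66.7%, all genes 46.9%) with every peak. Under each of these settings the share of the synthetase genes lay above that of all genes, by differing amounts.

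The start regions of these genes were searched for 7 motifs on both strands, within 100 bp of the strongest summit and in the 300 bases of the promoter. The strongest summits of the 13 genes lie within 1000 bp of a start site by rule. All 5326 reproducible summits, set beside them, were taken wherever they lie, so the backgrounds are not alike. CGATA, a short sequence contained in TATCGATA, lay within 7 of the 13 summit windows (53.8%), against 34.5% of all 5326 summits, and in 21 of 33 promoters (63.6%), against 47.3% of all promoters. GluProRS held it on both sides of its summit, starting 6 bp before and 18 bp after it, and SerRS held it starting 28 bp before. TATCGATA itself was found at 1 summit, IleRS (7.69%, all summits 5.82%), where it starts 42 bp upstream of the start site, and in 5 promoters (15.2%, all promoters 9.36%). GGTCACACT lay at 1 summit, ValRS (7.69%, all summits 2.52%), and in 4 promoters (12.1%, all promoters 6.04%). These are counts of a few genes and describe letters in a window, not binding.

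GTGGGAA and GTGAGAA, the sequences searched for Su(H), were at 0 of the 13 summits, against 5.13% of all summits. They were in 4 of 33 promoters (12.1%, against 6.48% of all promoters), those of ArgRS, GlnRS, HisRS and SerRS, all cytosolic. CACGTG, the E-box bound by Myc and Max, was at 0 summits (all summits 2.38%) and in 2 promoters (6.06%, all promoters 4.20%). GAGAGA, bound by GAGA factor, was at 0 summits (9.56%) and in 1 promoter (3.03%, all promoters 12.3%). TTGCATCA, a sequence bound by ATF and C/EBP dimers in mammals, was at 0 summits (0.582%) and in 0 promoters (0.816%). The windows are rich in A and T: the median G+C content of the 13 synthetase summits was 32.3% (26.4 to 46.3), against 36.3% for all summits, and of the 33 promoters 35.3%, against 38.0%. The ProRS-m promoter printed above holds GGTCACACT in both directions and CGATA 2 times, and the gene has no pooled summit.

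Genes that work beside the synthetases were looked up in the same way. The share of all genes, 29.7%, is the background for these short lists. Of 10 partners in tRNA charging, 4 (40.0%) had a reproducible summit: beta-PheRS (signal 257, rank 1823, 26 bp upstream), AIMP1 (201), a scaffold protein of the multi-synthetase complex, and GatA (660) and GatC (242), subunits of the mitochondrial amidotransferase that makes glutaminyl-tRNA. For GatA another gene's start site is nearer. GatB, a further subunit gene of that amidotransferase, had a pooled peak of 42.4 only, and Slimp (85.8) and Dtd (57.2) also had a pooled peak only. The partner subunit alpha-PheRS had a pooled peak of 56.7 only, so the pair of subunits of 1 enzyme differed, and AIMP2 and AIMP3 had no pooled summit. Of 10 translation elongation factor genes 4 (40.0%) had a summit: eEF1gamma (470), eEF1alpha1 (462), eEF2 (287) and the mitochondrial factor mEFTu1 (150, among the strongest peaks of 2 replicates). Of 3 genes of the amino acid stress response, crc (128), the fly ATF4, and Thor (197), the 4E-BP translation inhibitor, had one and the kinase gene Gcn2 did not. The crc summit lay 785 bp upstream, nearer to another gene and among the strongest peaks of 2 replicates only, and that of Thor lay 986 bp upstream. Other translation genes gave 69 of 92 cytosolic ribosomal protein genes (75.0%; 73.9% ± 3.92 in the replicates), 40 of 73 mitochondrial ribosomal protein genes (54.8%; 52.1% ± 9.59) and 20 of 44 genes with eIF symbols (45.5%; 44.7% ± 1.31). Against these, cytosolic synthetases stood at 10 of 18 (55.6%, and 57.4% ± 3.21 in the replicates), between the eIF genes and the cytosolic ribosomal protein genes. Their interval, 30.8 to 78.5, holds both of those shares. Mitochondrial synthetases, at 3 of 15 (20.0%, and 22.2% ± 3.85), lay below mitochondrial ribosomal proteins. Their interval, 4.33 to 48.1, ends below 54.8%. It holds counting error only and the 54.8% has an error of its own, so this is not a test. The whole family, at 39.4% (41.4% ± 1.75), was lower than each of the 3 lists. The family's interval, 22.9 to 57.9, holds the shares of the eIF and mitochondrial ribosomal protein genes. The SD between replicates re-reads the same genes and does not measure the error of a share over so few. The order of the lists was not tested.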

How the data were processed

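ChIP-seq peak lists of 3 Mam-GFP embryo samples (1 group) were used. The authors deposited, per the notes with the samples, lists of peaks and background per replicate, made from that replicate's alignment and 1 further file, a list of the pooled replicates and a reproducible list. Each deposited peak has a signal value and a −log10 q-value. The aligner, caller, versions, thresholds and signal scale were not given in the sources used here. The dm3 lists were not used. Sonicated fragments of 200 to 800 bp and unknown read numbers set the precision, which cannot be stated as depth.

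Start sites came from the Ensembl 115 annotation (BDGP6.54) and sequences from the Release 6 genome. Computed here (Python 3.11.15, numpy 2.4.6, scipy 1.17.1): summits within 1000 bp of a start site, ranks by signal, exact Clopper-Pearson 95% intervals (counting error only), and motif matches. A replicate peak was matched to a reproducible peak by overlap of at least 1 bp and the nearest summit. The steps were checked on simulated data. No test was run, since there is 1 group. Every synthetase gene was named, and sequences were shown by signal or symbol order. The members and lists were chosen with earlier results of these data known. Alternatives were windows of 500, 2000 and 5000 bp, other start sites and assignments, other thresholds and each replicate left out.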

Additional observations from a re-analysis of the deposited data

How the results depend on the processing

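A count is called moved here when it changes by over 1.5 times. The median rank is called moved when it changes by more than its SD between replicates, 2.23 over the same 13 genes. Counting every synthetase gene with a summit in each replicate, that SD is 8.12. With the cutoff of 2.23, 15 of 54 alternative values moved. The 13 synthetase genes with a reproducible summit became 21 within 5000 bp, 8 with the nearest start site alone and 8 where the peak holds a start site. The 10 cytosolic genes became 6 and 5 under those last settings, and the 3 mitochondrial genes became 8 within 5000 bp. The 13 genes found in all 3 replicates became 7 with the strongest 2663 peaks of each and 22 with every peak, background calls included. By the cutoff of 2.23 the median rank, at the top 22.6%, moved under every alternative. It was 27.5% within 500 bp, 17.2% within 2000 bp, 32.4% within 5000 bp and 19.9% with the 5′ end of the gene alone. It was 28.1% with the nearest start site alone, 36.3% where the peak holds a start site and 5.00% by rank in the longer pooled list. The last divides the same ranks by a longer list, so that move was fixed beforehand. Against 8.12, the values within 500 bp, within 2000 bp, with the 5′ end alone and with the nearest start site alone would not have moved. Smaller changes include 9 of 13 genes with the stronger 2663 reproducible peaks (without AlaRS, HisRS, PheRS-m and ValRS) and 18 of 26 pooled genes with the nearest start site alone or where the peak holds one. Leaving out each replicate gave 13 to 13 genes (10 to 10 cytosolic, 3 to 3 mitochondrial). That outcome was fixed beforehand and says nothing of stability, since the reproducible list was not rebuilt and all 13 genes had a summit among the strongest peaks of all 3 replicates. No paired analysis was possible because there is 1 group. Depth is unknown, so a missing peak is no evidence of absent binding.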
